A study of Mus musculus with 6 samples.

Results

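Collagens and laminins, the chains of the fibrous and sheet-like extracellular matrix, were followed through 3 brain regions of mice given PAMAM dendrimers or saline into the nose. Members were taken by gene symbol, as every array gene named as a collagen chain (Col, a type number, a, a chain number) or a laminin chain (Lama, Lamb or Lamc with a number). This gave 54 genes, 43 collagens and 11 laminins, of 35005 genes on the array. PAMAM dendrimers are branched synthetic polymers of amidoamine units. The groups were the olfactory bulb (called the bulb in places) after PAMAM and after saline, the hippocampus after PAMAM and after saline, and the cerebral cortex after PAMAM and after saline. All animals were male mice of the inbred BALB/c strain, 8 weeks old, and each received a single dose (0.15 mg/kg where it was PAMAM), with tissue taken at 24 h. Each group had 1 Agilent 1-colour array carrying RNA pooled from 6 independent experiments. Within a region, PAMAM is therefore set against saline by 1 pool each, without replicates, and no p-value is given. In the hippocampus the saline array lay in row 1 of the slide and the PAMAM array in row 2. Treatment and slide row cannot be told apart there. Whether 1 mouse gave all 3 regions is not stated in the labels.

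Collagens are built from alpha chains that fold into triple helices. Fibrillar collagens (types I, II, III, V, XI, XXIV and XXVII) form fibres, which in the brain lie mainly in the meninges and around larger vessels. Collagen IV and the laminins form the sheets of basement membranes, which wrap brain vessels and line the brain surface below the meninges. A laminin is a cross-shaped trimer of an alpha, a beta and a gamma chain. FACIT collagens attach to fibres, collagen VI forms beaded filaments, collagen VIII forms networks under endothelial cells, and a few collagens span the cell membrane.

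Values are log2 of the background-corrected spot signal minus the array's 75th percentile, called the scaled log2 signal below. A member counted as measured in a region when its probe was well above background, by the scanner's mark, on both arrays. Of 54 members, 44 passed in the bulb, 43 in hippocampus and 42 in cortex, which is 81.5%, 79.6% and 77.8% of members, against 66.5%, 63.8% and 61.7% of all genes. 5 members, Col4a3, Col6a4, Col6a6, Col13a1 and Col28a1, were above background on no array, and 39 were above it on all 6. From 273 probes spotted more than once, the median SD of a difference between arrays was 0.091 for the bulb pair, 0.096 for the hippocampus pair and 0.096 for the cortex pair. A difference of 2 of these median SDs is called the spot noise. The 273 probes were above background on all 6 arrays. Their 95th percentile SD was 0.27 for the bulb pair, 0.29 for the hippocampus pair and 0.36 for the cortex pair. A difference beyond the limit, above all of a dim member, can therefore still be noise of the spots. The limit covers the array surface and not the animals. As a check of the region labels, neuron markers of each region were set against their mean over the other regions. In the region of their label, 13 of 13 olfactory bulb, 10 of 10 hippocampal and 9 of 10 cortical markers were higher than this mean. The counts were the same on the PAMAM and the saline arrays. A marker so counted need not be highest there: Fezf2, a cortical marker, was 1.60 in PAMAM hippocampus and 1.03 in PAMAM cortex.

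The cortex was the region in which most members lay higher after PAMAM. There 34 of 42 measured members were higher and 8 lower, where 53.5% of all measured genes were higher, and the median difference was 0.24 against 0.02 for all genes. The probe used and another probe of the same member were both measured for 9 pairs of probes in the cortex, and 6 had opposite signs. The counts of opposite signs were 4 of 12 pairs in the hippocampus and 2 of 11 in the bulb. Beyond the spot noise, 23 members were higher and 4 lower in the cortex, against 17.0% and 19.4% of all genes. In the olfactory bulb the balance ran the other way, with 13 of 44 members higher and 31 lower (47.3% of all genes were higher) and a median of -0.09 against -0.01. Beyond the noise there, 2 members were higher and 12 lower, against 10.5% and 14.2% of all genes. In the hippocampus 21 of 43 were higher and 22 lower (51.2% of all genes were higher), with a median of -0.01 against 0.00, and 12 were higher and 5 lower beyond the noise (14.9% and 11.2% of all genes). Differences ranged from -0.55 to 0.27 in the olfactory bulb, from -0.46 to 1.04 in the hippocampus and from -0.50 to 1.14 in the cortex. At 2-fold or more there were 0 members in the olfactory bulb (0.258% of all genes), 1 in the hippocampus (Col24a1, 0.65%) and 1 in the cortex (Col8a2, 0.769%). Both were higher after PAMAM. Members above background on 1 array of a pair were not counted, and of these Col2a1 in the hippocampus was at least 2.48-fold lower after PAMAM. Opposite signs beyond the noise in bulb and hippocampus were seen for 1 of 41 members (3.82% of all genes), in bulb and cortex for 4 of 41 (5.14%) and in hippocampus and cortex for 4 of 40 (5.51%).

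**Figure D1:**
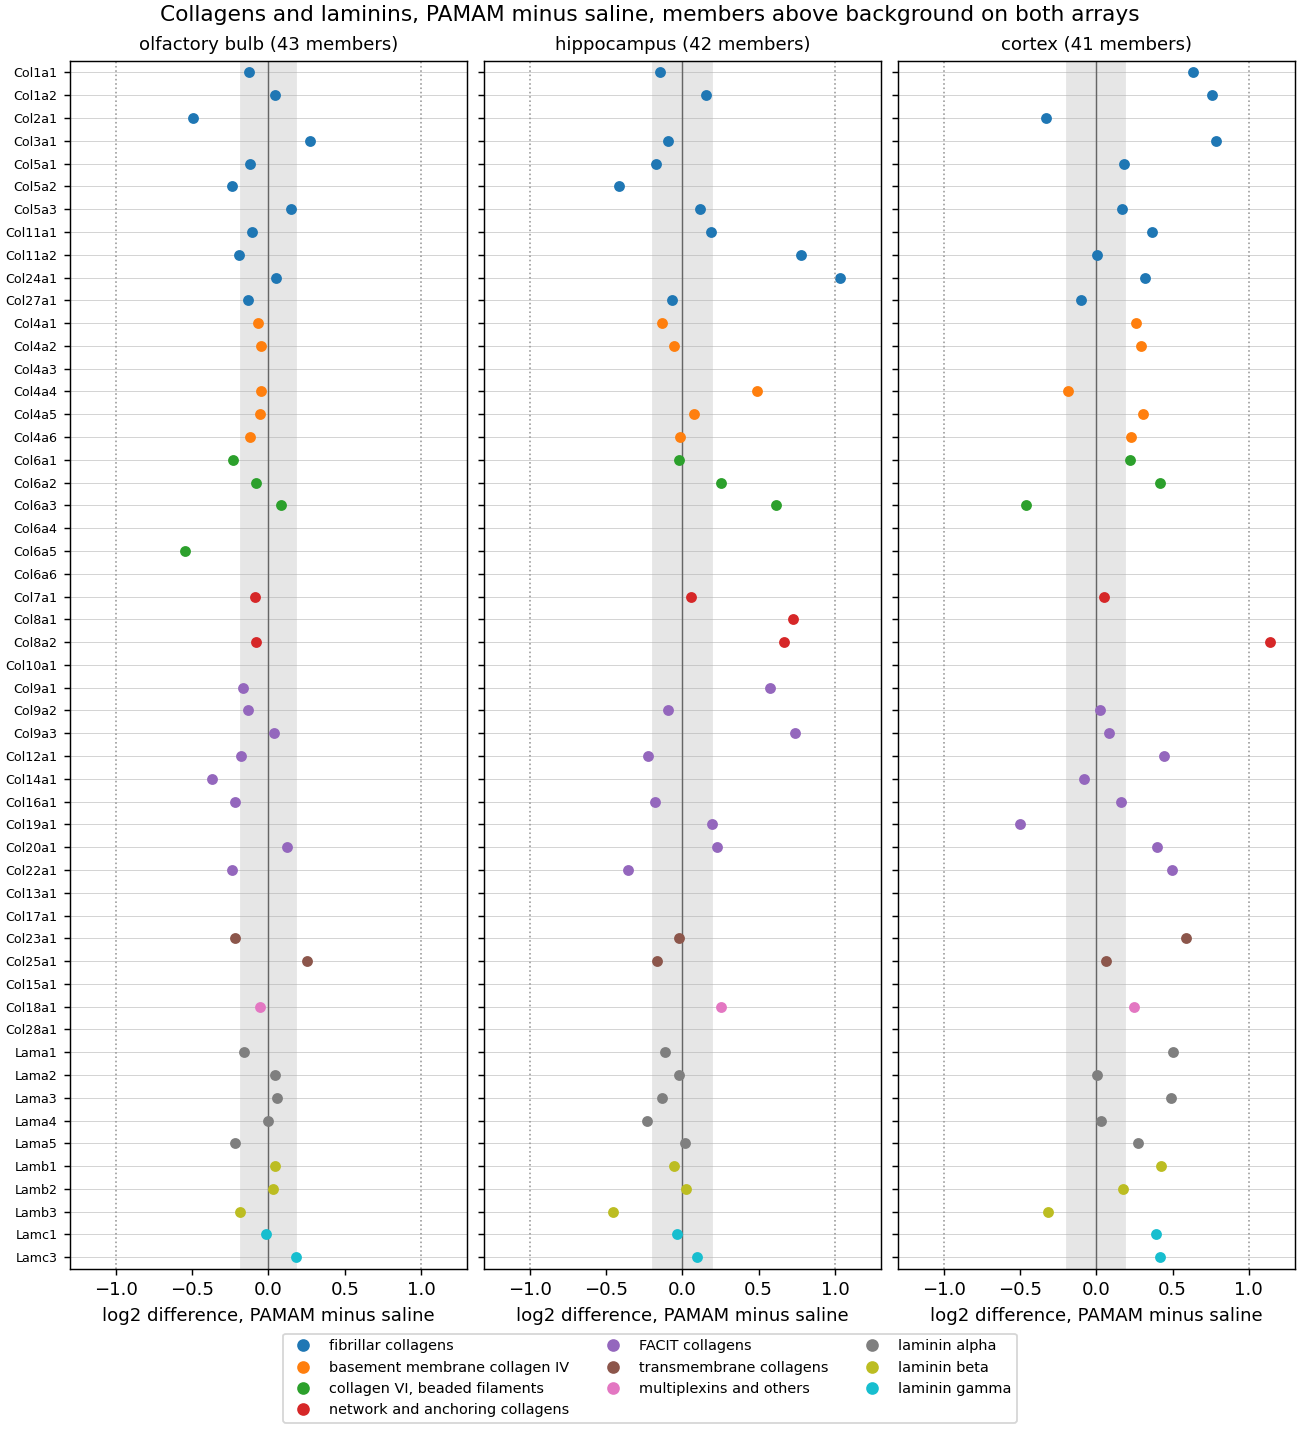
Difference in scaled log2 signal, PAMAM minus saline, of each collagen and laminin (rows) in the olfactory bulb, hippocampus and cortex (panels, 43, 42 and 41 members drawn, 1 member not drawn). Each point is 1 pair of arrays, coloured by class, grey bands show the spot noise, dotted lines 2-fold, and a missing point means not above background on both arrays. In the cortex 34 of 41 points lie right of 0, in the olfactory bulb 13 of 43.

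Markers of other cell types were read beside these counts, and not all of them ran the same way as the members. In bulk tissue, fewer cells of a type and less RNA per cell cannot be told apart. In the cortex 22 of 22 measured markers of meningeal and perivascular fibroblasts (of 24 on the array) were higher after PAMAM, with a median of 0.65 and Ogn (1.29), Aldh1a2 (1.18) and Slc13a4 (1.15) highest. Their summed scaled signal was 65.2 with PAMAM and 43.3 with saline in the cortex, 60.2 with PAMAM and 59.8 with saline in the hippocampus, and 111.3 with PAMAM and 117.9 with saline in the bulb, and no marker was at 0. In the hippocampus 7 of 22 and in the olfactory bulb 4 of 23 were higher. Choroid plexus markers were higher for 14 of 14 in the hippocampus (sum 375.0 with PAMAM, 234.4 with saline) and 10 of 11 in the cortex (56.0 with PAMAM, 32.5 with saline, Ttr difference 2.71). Red blood cell markers were higher for 7 of 7 in the hippocampus and 6 of 6 in the cortex. Hippocampal neuron markers were higher for 0 of 9 in the hippocampus (median -0.23), where cortical neuron markers were higher for 8 of 10 (0.32). In the cortex, cortical neuron markers were higher for 2 of 10 (median -0.05) and hippocampal neuron markers for 5 of 6 (0.33). Olfactory bulb neuron markers were higher there for 2 of 11 (-0.35). Endothelial markers were higher for 12 of 17 and pericyte and smooth muscle markers for 7 of 12 in the cortex. The part of any of these cells in the members' differences was not tested.

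**Figure D2:**
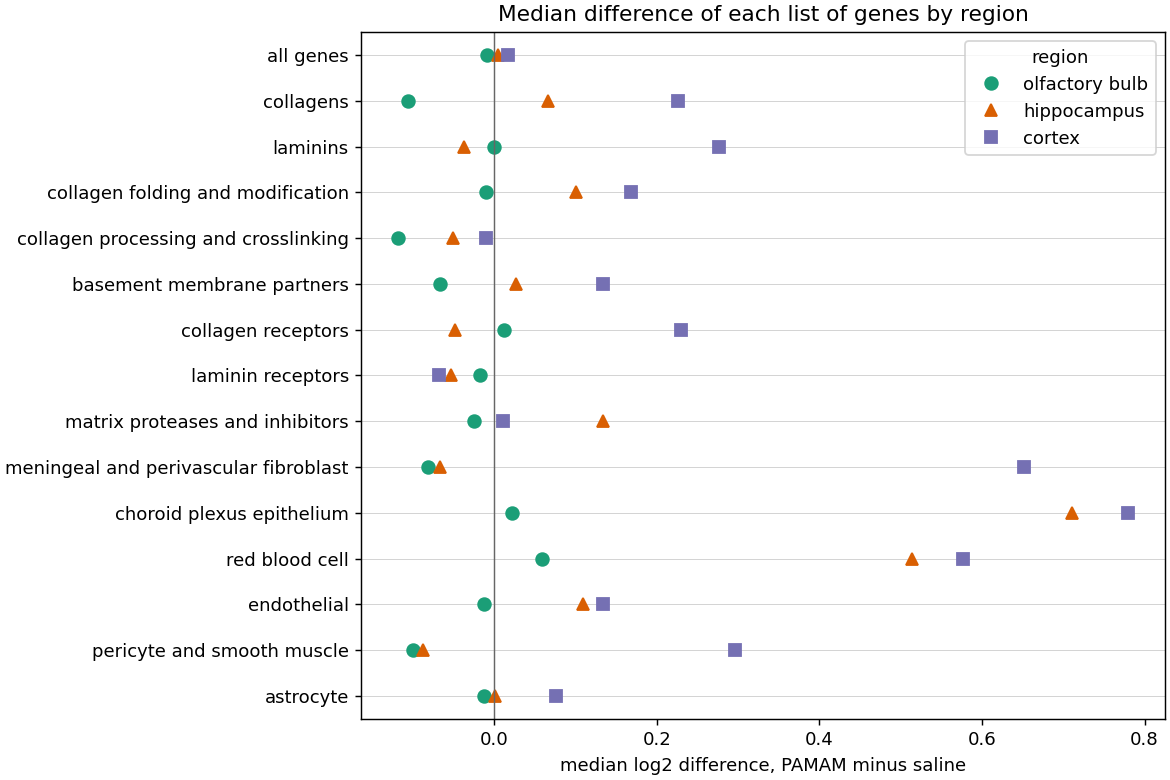
Median log2 difference, PAMAM minus saline, of the genes of each list (rows) that were above background on both arrays of a region, with 1 marker per region (green circles olfactory bulb, orange triangles hippocampus, purple squares cortex). In the cortex collagens and laminins lie at 0.23 and 0.28 and the meningeal and perivascular fibroblast markers at 0.65. In the olfactory bulb the same lists lie at -0.11, -0.00 and -0.08.

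Among the 11 fibrillar chains, the cortex showed 8 of 10 measured higher after PAMAM with a median of 0.25, the hippocampus 5 of 10 with 0.02, and the olfactory bulb 4 of 11 with -0.12. Col1a1, which with Col1a2 makes collagen I, had a scaled log2 signal of -0.21 in PAMAM cortex and -0.84 in saline cortex, a difference of 0.63. In the hippocampus it was -0.67 with PAMAM and -0.53 with saline, and in the olfactory bulb 0.49 with PAMAM and 0.62 with saline. Col1a1 thus lay higher after PAMAM in the cortex alone. Col1a2 was 1.98 in PAMAM and 1.22 in saline cortex (0.76), 1.45 in PAMAM and 1.29 in saline hippocampus (0.16), and 2.66 in PAMAM and 2.62 in saline bulb (0.05). Col3a1, the chain of collagen III that accompanies collagen I in vessel walls and meninges, was -2.37 in PAMAM cortex and -3.15 in saline cortex (0.79). It was -2.48 in PAMAM and -2.38 in saline hippocampus and -1.06 in PAMAM and -1.34 in saline bulb. These 3 chains differed beyond the noise in the cortex, and Col3a1 also in the olfactory bulb (0.27). With a different background correction (normexp), the Col3a1 difference was 0.47 in the cortex and 0.03 in the hippocampus.

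Col24a1, a fibrillar chain of collagen XXIV, was -2.81 in PAMAM hippocampus and -3.84 in saline hippocampus, a difference of 1.04. It was -1.48 in PAMAM and -1.80 in saline cortex (0.32), and 0.68 in PAMAM and 0.63 in saline bulb (0.05). This chain was dim in the hippocampus, and with normexp correction its difference there was 0.57. Col11a2, a chain of collagen XI, was -0.83 in PAMAM and -1.61 in saline hippocampus (0.78), while it was -1.48 on both cortex arrays (0.00) and -2.35 in PAMAM and -2.15 in saline bulb (-0.19). For Col11a1 the cortex gave 0.37, the hippocampus 0.19 and the bulb -0.11. Col2a1, the chain of cartilage collagen II, was lower after PAMAM in every region. It was -1.82 in PAMAM and -1.32 in saline olfactory bulb (-0.50), and -3.85 in PAMAM and -3.52 in saline cortex (-0.33, but 0.00 with normexp). In the hippocampus only the saline array measured it, at -3.14, and PAMAM was at least 2.48-fold lower. Col5a2 was lower after PAMAM in the hippocampus (-0.42) and olfactory bulb (-0.24) and not above background in the cortex. Col5a1, Col5a3 and Col27a1 lay between -0.17 and 0.18 in all regions.

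Collagen IV had 6 members, of which 5 were measured in each region. In the cortex 4 of 5 were higher after PAMAM (median 0.26), in the hippocampus 2 of 5 (-0.01), and in the olfactory bulb 0 of 5 (-0.06). Col4a1 and Col4a2 make the collagen IV of nearly all basement membranes and are transcribed in opposite directions from neighbouring start sites on mouse chromosome 8. In RefSeq (GRCm38.p6) the start sites lie 21 bases apart. The windows of 250 bases before to 50 after each start, chr8:11312777-11313076 (minus strand) for Col4a1 and chr8:11312555-11312854 (plus strand) for Col4a2, are shown because the pair was described side by side, with the 78 bases they share in capitals.
Col4a1: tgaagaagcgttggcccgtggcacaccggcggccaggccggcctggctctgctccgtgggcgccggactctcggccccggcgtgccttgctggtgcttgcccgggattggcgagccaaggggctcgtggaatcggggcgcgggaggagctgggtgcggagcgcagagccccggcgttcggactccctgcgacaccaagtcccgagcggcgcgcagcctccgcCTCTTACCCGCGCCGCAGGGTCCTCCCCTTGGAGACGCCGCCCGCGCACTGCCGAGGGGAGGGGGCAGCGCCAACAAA
Col4a2: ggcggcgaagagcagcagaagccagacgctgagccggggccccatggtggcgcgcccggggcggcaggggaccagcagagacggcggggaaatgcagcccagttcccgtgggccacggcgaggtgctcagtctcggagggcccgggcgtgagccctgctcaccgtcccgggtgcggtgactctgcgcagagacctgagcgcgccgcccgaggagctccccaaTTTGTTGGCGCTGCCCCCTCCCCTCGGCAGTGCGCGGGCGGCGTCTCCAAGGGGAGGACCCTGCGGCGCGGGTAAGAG
Col4a1 was printed on 10 spots of each array, so its noise could be read directly. It was 0.05 in PAMAM cortex, with an SD of 0.099 over 10 spots, and -0.21 in saline cortex, with an SD of 0.078, a difference of 0.26. Hippocampus values were 0.26 with PAMAM and 0.40 with saline (-0.14), and bulb values 0.14 with PAMAM and 0.21 with saline (-0.07). The spots overlapped between PAMAM and saline in the cortex, since PAMAM ran from -0.10 to 0.18 and saline from -0.32 to -0.07. Col4a2 was 0.56 in PAMAM and 0.26 in saline cortex (0.30), 0.59 in PAMAM and 0.65 in saline hippocampus (-0.06), and 0.10 in PAMAM and 0.15 in saline bulb (-0.05). The neighbours thus had the same sign in each region. Col4a5, a chain of a second collagen IV network, was -3.11 in PAMAM and -3.42 in saline cortex (0.31), and Col4a6, its partner, -2.06 in PAMAM and -2.28 in saline cortex (0.23). Col4a4 behaved otherwise, at -2.71 in PAMAM and -3.20 in saline hippocampus (0.49) and -2.94 in PAMAM and -2.76 in saline cortex (-0.18, but 0.03 with normexp).

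Chains of collagens VI and VIII differed between regions in sign or in size. Col6a1 was 2.65 in PAMAM and 2.43 in saline cortex (0.22), 1.44 in PAMAM and 1.46 in saline hippocampus (-0.02), and 3.26 in PAMAM and 3.50 in saline bulb (-0.23). Col6a2 was higher after PAMAM by 0.42 in the cortex and 0.25 in the hippocampus and differed by -0.08 in the olfactory bulb. Col6a3, the other common chain, went against them in the cortex. It was -2.34 in PAMAM and -1.88 in saline cortex (-0.46), -2.06 in PAMAM and -2.68 in saline hippocampus (0.61), and -1.77 in PAMAM and -1.86 in saline bulb (0.08). Col6a5 had the lowest difference of the measured members in the olfactory bulb, -3.90 with PAMAM against -3.35 with saline (-0.55). Col8a2, a collagen VIII chain, had the largest difference among members above background on both arrays. It was -2.57 in PAMAM cortex and -3.71 in saline cortex (1.14, and 0.63 with normexp), -0.55 in PAMAM and -1.21 in saline hippocampus (0.66), and -2.41 in PAMAM and -2.33 in saline bulb (-0.08). Its partner Col8a1 was -2.89 in PAMAM and -3.61 in saline hippocampus (0.72). In the cortex Col8a1 was measured on the PAMAM array alone, at -3.99, at least 1.38-fold higher than with saline. Choroid plexus markers were higher after PAMAM for 14 of 14 in the same hippocampus pair and 10 of 11 in the same cortex pair, and their part in the collagen VIII differences was not tested. Col7a1, the anchoring fibril chain, differed by 0.05 in the cortex, 0.05 in the hippocampus and -0.09 in the olfactory bulb.

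The windows of the 2 collagen VIII genes are printed because both chains were higher after PAMAM in the hippocampus, Col8a1 at chr16:57754688-57754987 (minus strand) and Col8a2 at chr4:126286544-126286843 (plus strand), both GRCm38.p6 from RefSeq. Capitals mark GGGCGG on either strand (CCGCCC on the printed one), the GC box that Sp-family factors can bind.
Col8a1: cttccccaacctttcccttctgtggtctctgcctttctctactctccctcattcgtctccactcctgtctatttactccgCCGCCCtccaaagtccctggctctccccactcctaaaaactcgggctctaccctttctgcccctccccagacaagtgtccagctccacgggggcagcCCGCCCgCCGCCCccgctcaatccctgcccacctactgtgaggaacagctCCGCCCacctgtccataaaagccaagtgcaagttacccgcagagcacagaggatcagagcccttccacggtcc
Col8a2: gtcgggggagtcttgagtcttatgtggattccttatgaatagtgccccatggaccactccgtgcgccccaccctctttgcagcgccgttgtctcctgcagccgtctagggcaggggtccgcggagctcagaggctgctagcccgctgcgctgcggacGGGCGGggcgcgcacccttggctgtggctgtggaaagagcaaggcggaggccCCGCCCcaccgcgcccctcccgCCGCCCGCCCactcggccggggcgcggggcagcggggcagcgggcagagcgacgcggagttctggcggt
Each window held 4 matches, and the last 2 of Col8a2 overlap. A match is only a run of letters. The motif was in 35.7% of 32851 RefSeq windows and in 26 of the 44 windows of the 40 members that had one.

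FACIT and transmembrane collagens were mixed. Of the FACIT chains 6 of 8 measured were higher after PAMAM in the cortex, 4 of 8 in the hippocampus and 2 of 8 in the olfactory bulb. Col9a3, a chain of the collagen IX that sits on collagen II fibres, was -1.97 in PAMAM and -2.71 in saline hippocampus (0.74), and Col9a1 was -3.78 with PAMAM and -4.35 with saline (0.57). Their partner Col9a2 differed by -0.10. Col12a1 was -2.81 in PAMAM and -3.25 in saline cortex (0.44), and -3.35 in PAMAM and -3.13 in saline hippocampus (-0.22). Col16a1 differed by 0.16 in the cortex and -0.18 in the hippocampus, where its other probe gave -0.07 and 0.08, and by -0.22 in the olfactory bulb. Col20a1 was higher by 0.40 in the cortex, 0.22 in the hippocampus and 0.12 in the olfactory bulb. Col19a1 was -3.98 in PAMAM and -3.48 in saline cortex (-0.50, and -0.10 with normexp), and -3.28 in PAMAM and -3.47 in saline hippocampus (0.20). Col14a1 was lower after PAMAM in the olfactory bulb, -4.28 with PAMAM and -3.91 with saline (-0.37). Col22a1 differed by 0.50 in the cortex and -0.35 in the hippocampus, but its other probe gave -0.03 and 0.19, so its direction depends on the probe. Col23a1, a membrane-spanning chain, was -1.90 in PAMAM and -2.49 in saline cortex (0.59), and 0.04 in PAMAM and 0.26 in saline bulb (-0.22). Col25a1, the membrane collagen found in amyloid plaques, differed by 0.26 in the olfactory bulb, where its other probe gave -0.20. In the cortex Col25a1 differed by 0.065, where its other measured probes gave -0.18 and -0.26. Col17a1, of epithelial anchoring complexes, was measured on the saline cortex array alone, and PAMAM was at least 1.76-fold lower. Col18a1, the source of endostatin, was higher after PAMAM by 0.25 in the cortex and 0.25 in the hippocampus and differed by -0.06 in the olfactory bulb. Of the other dim members, Col10a1 and Col15a1 were above background on at most 1 array in any region.

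All 11 laminins were measured in every region. After PAMAM 9 of 11 were higher in the cortex (median 0.28), 4 of 11 in the hippocampus (-0.04) and 5 of 11 in the olfactory bulb (-0.00). Lama1, an alpha chain of the brain surface basement membrane, was 0.03 in PAMAM and -0.48 in saline cortex (0.50), -0.24 in PAMAM and -0.13 in saline hippocampus, and -0.02 in PAMAM and 0.14 in saline bulb. Lamb1 was 0.92 in PAMAM and 0.49 in saline cortex (0.43), 2.17 in PAMAM and 2.23 in saline hippocampus, and 0.84 in PAMAM and 0.80 in saline bulb. Lamc1, the gamma chain of most laminins, was 1.34 in PAMAM and 0.96 in saline cortex (0.39), 1.05 in PAMAM and 1.09 in saline hippocampus, and 1.48 in PAMAM and 1.497 in saline bulb. Chains of the laminin-111 trimer were therefore each higher after PAMAM in the cortex and within the noise in the other regions. Lama5, an alpha chain of vessels, was 0.55 in PAMAM and 0.27 in saline cortex (0.28), and 0.88 in PAMAM and 1.10 in saline bulb (-0.22). Lama2, the alpha chain that astrocyte endfeet and muscle use, differed by 0.01 in the cortex, where its other probe gave -0.25, by -0.02 in the hippocampus and by 0.04 in the bulb. Lama4, of endothelial basement membranes, differed by 0.03 in the cortex, -0.23 in the hippocampus and -0.00 in the bulb. Lamb2 differed by 0.18 in the cortex, 0.02 in the hippocampus and 0.03 in the bulb, inside the noise in each. Lamc3 differed by 0.42 in the cortex, 0.10 in the hippocampus and 0.18 in the bulb, beyond the noise in the cortex alone. Lama3 differed by 0.49 in the cortex, where its other probe gave -0.48. Lamb3, a beta chain of epithelial basement membranes, was lower after PAMAM everywhere, at -3.68 with PAMAM and -3.49 with saline in the bulb, -3.14 with PAMAM and -2.69 with saline in the hippocampus, and -1.85 with PAMAM and -1.53 with saline in the cortex.

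**Figure D3:**
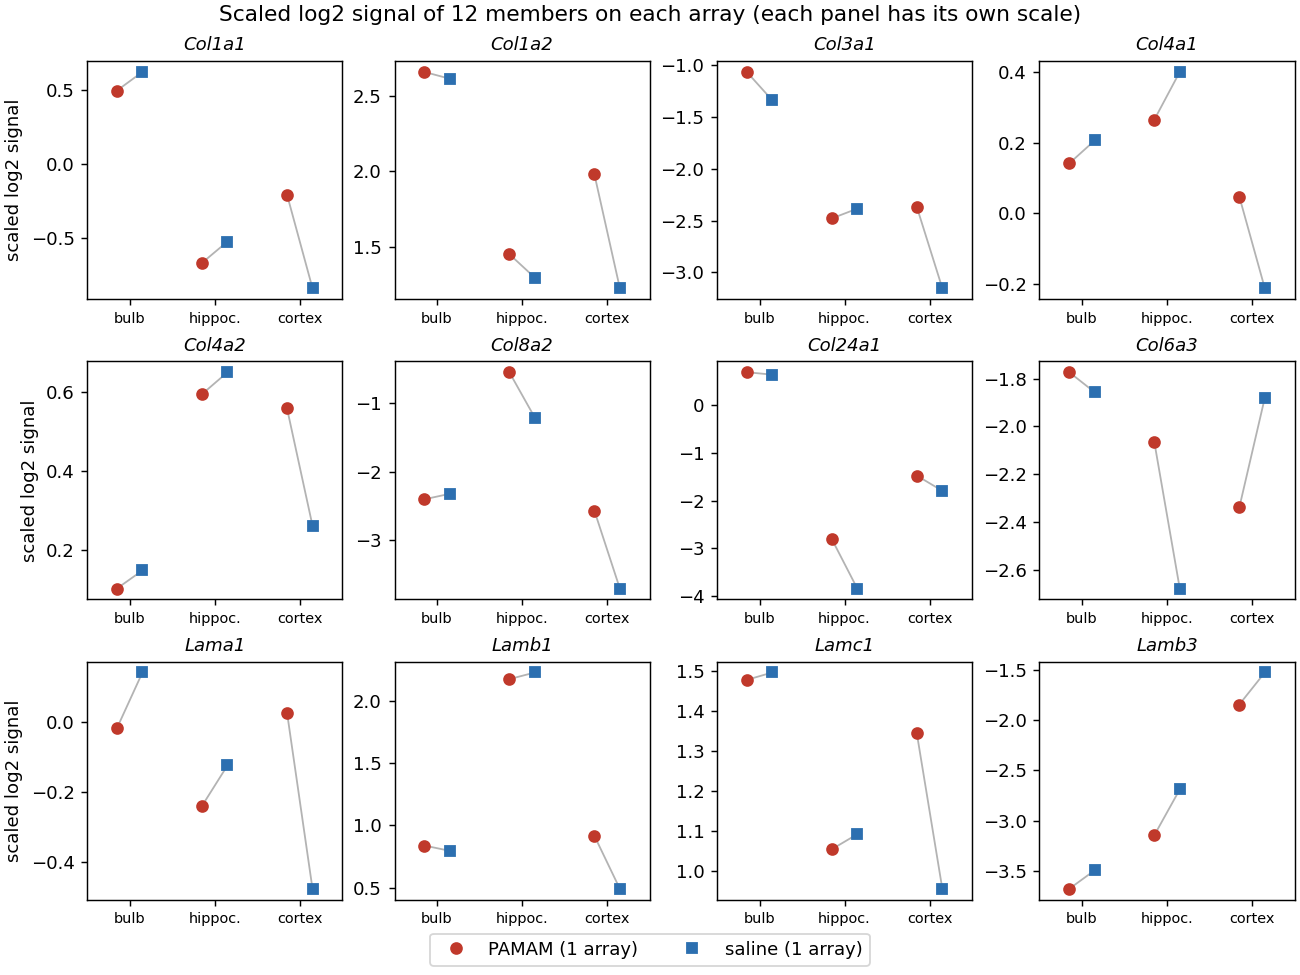
Scaled log2 signal of 12 members on each of the 6 arrays, PAMAM (red circles) left of saline (blue squares) in each region, 1 array per point. Each panel has its own vertical scale, so levels of different genes are not to be compared. Col1a1, Col1a2, Col3a1, Lama1, Lamb1 and Lamc1 lie higher with PAMAM in the cortex, while Col6a3 lies lower there and Lamb3 lies lower in all regions.

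Of the 39 members measured in all 3 regions, 7 were higher after PAMAM in each (Col1a2, Col5a3, Col9a3, Col20a1, Col24a1, Lamb2 and Lamc3), against 15.3% of all genes, and 2 were lower in each (Col27a1 and Lamb3), against 14.2%. With normexp correction Col27a1 was above 0 in the hippocampus and cortex (0.03 and 0.02) and Col9a3 changed sign in the olfactory bulb. An additive limma fit of region and treatment to all 6 arrays tested each gene's mean difference between PAMAM and saline over the 3 regions. None of 46 members passed an adjusted p of 0.05 (limma, Benjamini-Hochberg over 24342 genes), nor did any gene (0.0% of those tested). At an unadjusted p under 0.05 there were 8 members and 1599 genes. The smallest adjusted p of a member was 0.684, for Col2a1 at -0.71 ± 0.21 (SE, 3 pairs of arrays, limma). The other 7 were Col6a5, Col20a1, Col8a2, Col24a1, Col8a1, Col1a2 and Lamb3. The count of members stayed at 0 in the 14 alternative fits. With 2 residual degrees of freedom its error measures departure from equal effects across regions and not the spread between animals.

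Genes that make, cut and bind collagen gave the following values in the cortex. Of the 19 measured folding and modification genes, 14 were higher after PAMAM (median 0.17), led by Creb3l1 (0.77), a transcription factor of collagen-secreting cells, and Serpinh1 (0.67), the collagen chaperone. Of 10 processing and crosslinking genes 5 were higher. The procollagen N-propeptidase Adamts2 (1.01) and the enhancer of C-propeptide cleavage Pcolce (0.998) led them, while Tll1 (-0.91) and Adamts3 (-0.44) were lowest. Of 12 basement membrane partners 8 were higher, with Fbln1 (0.75) and Nid1 (0.67), which links laminin to collagen IV, highest, and Npnt (-3.11 with PAMAM, -2.11 with saline) and Smoc1 (a difference of -0.34) lowest. Collagen receptors were higher for 6 of 9 (Itga10 0.85, Itga11 0.60) and laminin receptors for 4 of 12. In the hippocampus the folding list had 14 of 20 higher (median 0.10) and the processing list 2 of 10. P4ha1, a collagen prolyl hydroxylase subunit, was higher in every region, by 0.50 in the hippocampus, 0.56 in the olfactory bulb and 0.41 in the cortex. Proteases and inhibitors were higher for 10 of 14 in the hippocampus, led by the inhibitor Timp1 (1.83) and the fibroblast protease Fap (0.74), and for 7 of 13 in the cortex. Timp1 was near the floor in saline hippocampus, at -4.78, where the lowest value above background was -5.05. In the cortex Timp1 was above background on 1 array and not counted, at -2.15 with PAMAM and -4.28 with saline. In the olfactory bulb 9 of 20 folding genes, 2 of 10 processing genes and 2 of 11 basement membrane partners were higher.

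Differences between regions were tested with 2 arrays a region, which were a PAMAM pool and a saline pool and not replicates. The limma fit had 2 residual degrees of freedom, and its error measured departure from equal PAMAM effects across regions. The p-values for regions therefore do not cover the spread between animals or dissections. In the same limma fit, 33 of 46 members differed between olfactory bulb and hippocampus, 23 higher and 10 lower in the olfactory bulb, where 45.3% of all genes passed (19.2% higher and 26.1% lower). Between olfactory bulb and cortex 32 passed, 26 higher and 6 lower (48.0% of all genes, 18.8% higher and 29.2% lower). Between hippocampus and cortex 17 passed, 11 higher and 6 lower (15.4% of all genes, 6.4% higher and 8.95% lower). The slide row is a limit here, because both olfactory bulb arrays lie in one row and both cortex arrays in the other. The hippocampus has its saline array in the bulb row and its PAMAM array in the cortex row. With the row as a block the bulb-cortex count was 12 and the hippocampus-cortex count 10. Without the hippocampus PAMAM array 10, and without the hippocampus saline array 11, passed between hippocampus and cortex.

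Col24a1 had the largest difference, with 0.68 (PAMAM) and 0.63 (saline) in the olfactory bulb against -2.81 (PAMAM) and -3.84 (saline) in the hippocampus. The difference was 3.98 ± 0.22 (SE, limma adjusted p = 1.46e-05), and against the cortex 2.30 ± 0.22 (limma adjusted p = 0.00016). Col7a1 was 2.26 (PAMAM) and 2.34 (saline) in the bulb and 0.22 (PAMAM) and 0.17 (saline) in the hippocampus, higher by 2.11 ± 0.08 (limma adjusted p = 2.72e-06), and by 2.24 over the cortex. Among fibrillar chains 6 of 11 were higher and 1 lower in the bulb than in the hippocampus, and Col1a1 (1.16), Col1a2 (1.27), Col2a1 (2.22) and Col3a1 (1.23) were among those higher. Col6a1 was higher in the olfactory bulb by 1.93 over the hippocampus and 0.84 over the cortex, and Lama4 by 1.84 and 0.83. With the slide row as a block, their differences from the cortex did not pass (limma adjusted p = 0.069 for Col6a1 and 0.126 for Lama4). The meningeal and perivascular fibroblast markers were higher for 17 of 24 and lower for 1 of 24 in the same contrast with the hippocampus (median 1.60), and for 19 and 1 against the cortex. Their part in the members' differences was not tested.

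Other chains were higher in the hippocampus or cortex. Col8a2 was -0.55 (PAMAM) and -1.21 (saline) in the hippocampus against -2.57 (PAMAM) and -3.71 (saline) in the cortex, higher by 2.26 ± 0.26 (limma adjusted p = 0.00183), and it was lower in the olfactory bulb than in the hippocampus by a log2 difference of -1.48. Its partner Col8a1 had -1.73 in the olfactory bulb relative to the hippocampus. In the bulb Col8a1 was near the floor, at -4.84 with PAMAM and, below the background mark, -5.12 with saline, so the size of this difference is uncertain. Choroid plexus markers were higher in the hippocampus than in the cortex for 14 of 14. Their part in these differences was not tested. Lamb1 read 2.17 (PAMAM) and 2.23 (saline) on the hippocampus arrays against 0.92 (PAMAM) and 0.49 (saline) on the cortex arrays (a difference of 1.496 ± 0.12, SE, limma adjusted p = 0.000422). Lamb3, whose values by array are given above, was lowest in the olfactory bulb and highest in the cortex, and each pair of regions passed the test. Olfactory bulb minus cortex was -1.90 ± 0.17 (SE, limma adjusted p = 0.000105), olfactory bulb minus hippocampus -0.67 (limma adjusted p = 0.0144) and hippocampus minus cortex -1.23 (limma adjusted p = 0.00318). The difference between olfactory bulb and hippocampus did not pass with the slide row as a block, nor without the bulb saline or the hippocampus saline array (highest limma adjusted p = 0.125). Col25a1 was lower in the olfactory bulb than in the hippocampus (-1.88) and the cortex (-1.19).

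Several of the wide differences are bounds or depend on the probe. Col5a2 was not above background on either cortex array, and the olfactory bulb was at least 4.74-fold and the hippocampus at least 3.76-fold higher than the cortex. Col5a2 entered the fit through its bulb and hippocampus arrays. Its calls against the cortex rest on values below background, as does the Col6a5 call between bulb and cortex, so no p-value is given for them. Col19a1 was not above background in the olfactory bulb, and the hippocampus was at least 3.32-fold and the cortex at least 2.60-fold higher than it. Col19a1 entered the fit through its hippocampus and cortex arrays, so its calls against the bulb also rest on values below background. With the slide row as a block the Col19a1 difference from the cortex did not pass (limma adjusted p = 0.181). Col22a1 was lower in the olfactory bulb than in the hippocampus by its main probe (-2.17) and higher by its other probe (0.66), so no direction can be given for it. Members that passed in none of the region contrasts were Col4a4, Col4a6, Col5a1, Col5a3, Col6a3, Col14a1, Lama1 and Lamc3. Calls that passed in each of the alternative fits that held the member (14, or 13 for members that one filter left out) numbered 22 for bulb against hippocampus, 11 for bulb against cortex and 8 for hippocampus against cortex.

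**Figure D4:**
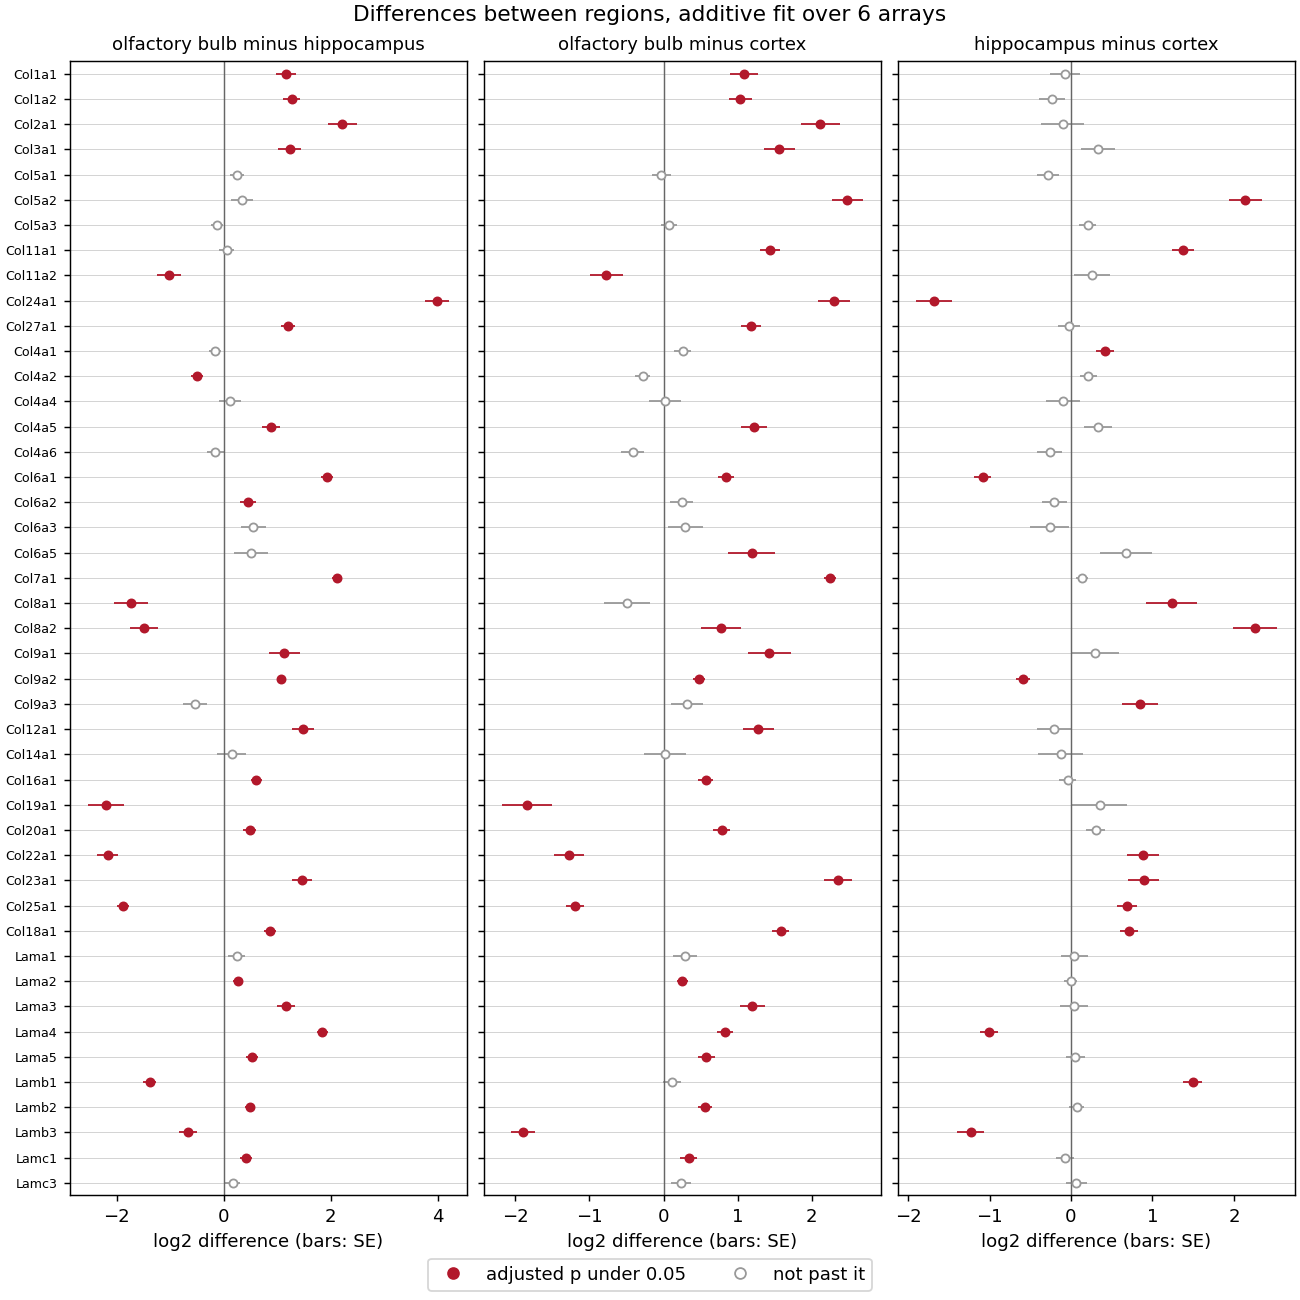
Fitted log2 differences between regions for 45 of the 46 members in the limma fit (rows, 1 member not drawn), with SE bars, filled red where the adjusted p was under 0.05 and open grey otherwise. Of those drawn, olfactory bulb minus hippocampus has 23 higher and 9 lower, olfactory bulb minus cortex 26 and 5, and hippocampus minus cortex 11 and 5.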

How the data were processed

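Expression was measured on 6 arrays, 1 per region and treatment, grouped by the labels. Per probe spot, the deposited files give a linear intensity from which background was subtracted by Feature Extraction 10.7.3.1 with probe positions on mm9, per the file headers. A second table deposited by the authors, in log2, correlated with the values used here, centred by probe, at r from 0.99994 to 0.99998, so its scale, centring and direction were read from the values, while its treatment of repeated spots stays unknown. Its column medians were -0.0626 and -0.0914 (olfactory bulb, PAMAM and saline), 0.0254 and -0.0462 (hippocampus) and 0.0349 and 0.0436 (cortex).

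Log2 of the processed signal minus each array's 75th percentile was used, outlier spots were dropped and spots of a probe averaged. The percentile lay between 452.0 and 709.6, between 34134 and 39057 of 59305 spots were above background, and 0 were saturated. Symbols of 27318 probes were updated through RefSeq and 28348 kept the file's name. The probe with the highest mean stood for a gene, and 20 members had more than 1 probe. A bound sets the brighter value against the higher of the dim value and the array's lowest value above background. The number of arrays limits precision.

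The fit was limma 3.58.1 in R 4.3.3 (lmFit, eBayes with trend, region plus treatment) on 24342 genes above background on at least 2 arrays, checked on simulated data. All arrays share 1 slide and 1 scan. Members, classes and lists were chosen with earlier results of these data known, and the noise limit of 2 SD after values were seen. Named members were the 6 highest and 4 lowest per region, the 6 largest per region contrast, chains of collagens I, III, IV and VI and the common laminins, and others with their class. The series' 1 probe named Emid2 in the files, a collagen under its present RefSeq symbol, falls outside the rule. The values of 1 member are not reported here, though the counts and medians hold it. Alternatives were normexp (offset 50), quantile normalization, the deposited table, other probes and filters, slide row, no trend, and leaving out arrays.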

Additional observations from a re-analysis of the deposited data

Results flagged for a closer look

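A member was singled out when its PAMAM minus saline difference lay beyond the spot noise in 2 regions with opposite signs. This limit was set after the values were seen, and a stricter one, which asked for 2-fold in one region, had singled out 0. It gave 9 pairs of regions in 8 members. The difference between the regions was not tested, since each rests on 1 pair of arrays a region. In the hippocampus pair, PAMAM and saline also lay in different slide rows. Of all genes measured in both regions, 3.82% met it for olfactory bulb and hippocampus (1 of 41 members), 5.14% for olfactory bulb and cortex (4 of 41) and 5.51% for hippocampus and cortex (4 of 40).

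Col11a2 gave -0.19 (bulb) and 0.78 (hippocampus), -0.97 apart. Between olfactory bulb and cortex, Col23a1 gave -0.22 and 0.59 (-0.81 apart), Lama5 -0.22 and 0.28 (-0.49 apart) and Col6a1 -0.23 and 0.22 (-0.46 apart). The other probes of Col23a1 gave -0.10 and -0.05 in the bulb, inside the noise. The latter probe, also measured in the cortex, gave 0.98 there. Between hippocampus and cortex, Col6a3 gave 0.61 and -0.46 (1.07 apart), Col19a1 0.20 and -0.50 (0.69 apart) and Col12a1 -0.22 and 0.44 (-0.67 apart). Col22a1 gave -0.24 (bulb) and -0.35 (hippocampus) against 0.50 in the cortex (-0.74 and -0.85 apart), and its other probe gave -0.03 in the cortex. With normexp correction Col12a1 was -0.02 in the hippocampus and Col19a1 was -0.10 in the cortex, both inside the noise. Col19a1, a dim member, met the limit in the hippocampus narrowly, at 0.1954 against 0.1926.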

How the results depend on the processing

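The median difference of the members kept its sign in the olfactory bulb (-0.09 to -0.07) and the cortex (0.18 to 0.27) under every alternative run, while in the hippocampus it lay between -0.02 and 0.03. Counts at 2-fold were less stable: the hippocampus had 0 with normexp and 0 with quantile normalization, the cortex 0 with normexp and 0 when a gene's probes were summarised by their median, and counting members below background gave 1, 2 and 6 in the olfactory bulb, hippocampus and cortex, and 15 with one sign in all regions. With slide row as a block 12 members passed for bulb against cortex and 10 for hippocampus against cortex. For the latter a prior without trend gave 9, and the deposited table, which was also fitted without trend, gave 9. Leaving out 1 array at a time gave 25 to 35 members for bulb against hippocampus, 26 to 33 for bulb against cortex, and 10 to 18 for hippocampus against cortex. The lone array of a region was then taken to vary like the others. The cause was not tested. Single members' differences moved beyond the noise for 30 of 129 values with normexp, 5 with quantile normalization and 0 with the deposited table. No paired analysis by replicate number was possible because the labels give each group 1 sample and no number, while the additive fit took region as a block. Dim members limit the depth: normexp adds an offset, and it narrowed the differences of Col24a1, Col8a2 and Col19a1.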
